A study of Mus musculus with 2 samples.

Results

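The genes described here are the Wnt family and its immediate partners: the secreted Wnt ligands, the frizzled receptors, the co-receptors Lrp5, Lrp6, Ror1 and Ror2, the secreted antagonists of the Sfrp and Dkk families with Frzb and Wif1, and the intracellular genes Axin1, Axin2, Ctnnb1, Tcf7 and Lef1. They were chosen by their annotated symbol, with earlier results of these data known. This gave 47 of 16390 named genes on the array, each with 1 probe. They comprised 19 ligands, 9 frizzled receptors, 4 co-receptors, 10 secreted antagonists and 5 intracellular genes. The RNA came from marrow stroma of C57BL/6 mice, labelled as bone marrow stromal cells, 1 day or 3 days after the whole animal received 9.5 Gy, a total body irradiation, or from mice that were not irradiated. Each irradiated time point was hybridised on 1 array together with unirradiated RNA, the irradiated RNA labelled with Cy3 and the unirradiated RNA with Cy5 on both arrays. The series design gives 6 mice without their division among groups or any pooling. The sources used here do not tell how stromal cells were separated from blood cells.

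Wnt proteins are lipid-modified secreted signals that bind a frizzled receptor on the receiving cell. With the co-receptor Lrp5 or Lrp6, this holds back the destruction complex built on axin, so that beta-catenin (Ctnnb1) accumulates and acts in the nucleus with factors of the Lef1 and Tcf7 family. Other Wnt proteins act through Ror1, Ror2 and related receptors without beta-catenin. Sfrp proteins, Frzb and Wif1 bind the ligands, and Dkk1 binds Lrp5 and Lrp6. In bone marrow the pathway is known for driving stromal precursors towards osteoblasts and away from fat cells, and for its influence on haematopoietic stem cells.

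Each value is the log ratio of both channels, read as log2, with the median of all genes on an array set to 0. The direction was not stated with the values. A positive value was taken to mean more transcript in irradiated than in unirradiated RNA, the likely direction, because p53 targets, which radiation is known to induce, had a median of 1.73 at day 1 and 1.09 at day 3, and mitotic genes had a median of -3.24 at day 3, though 0.89 at day 1. The order of the sample titles alone would give the reverse. With the opposite direction all "higher" and "lower" values would change places. A single array per time point leaves no replicate error and no test, and differences are described by size, with 2-fold (a log2 ratio of 1) as the threshold for a count. The only measured spread is that between different probes of a gene, with a pooled SD of 0.76 on the log2 scale at day 1 (85 genes) and 0.58 at day 3 (116 genes); none of the 47 members was among these genes. Irradiated RNA carried the same dye on both arrays, so a dye effect on a gene cannot be told apart from irradiation in either ratio. In such bulk RNA, fewer cells of a type and less RNA per cell cannot be told apart. Ratios give no level, so whether stromal markers were abundant in these cells was not measured.

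A ratio was given for 26 of the 47 members at day 1 and for 34 at day 3, or 55.3% and 72.3%, beside 63.7% and 69.6% of all named genes. Both arrays gave one for 24 members. Wnt2b and Fzd7 had a ratio at day 1 only, and 10 members at day 3 only: Wnt3a, Wnt5a, Wnt9a, Wnt10b, Wnt11, Wnt16, Fzd9, Lrp6, Ror2 and Lef1. No ratio was given on either array for 11 members: Wnt1, Wnt7a, Wnt7b, Wnt8a, Wnt8b, Fzd3, Fzd5, Sfrp5, Dkk4, Axin2 and Tcf7. What left entries empty is unknown here, so an empty entry is not a measured low level. Axin2 is a feedback target often read as a sign of beta-catenin activity, and it is among the genes without a value.

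At day 1 the Wnt family was mostly on the lower side. Of 26 members with a ratio, 6 were lower by 2-fold or more (23.1%, beside 11.1% of all 10434 genes) and 1 was higher by 2-fold or more (3.85%, beside 19.6% of all genes). The 6 were the ligands Wnt4 and Wnt5b, the receptors Fzd2 and Fzd8, and the antagonists Dkk2 and Sfrp4, and the 1 was Ror1. Below 0 stood 19 members and above it 7, with a median of -0.51 against 0 for all genes; that median became 0.01 when ribosomal protein genes were set to 0, which moves every value up by 0.52. Under that centring Wnt4 and Dkk2 were still past 2-fold on the lower side, Dkk2 only just at -1.008, and the other 4 were not. Fzd2 and Sfrp4 also lost their call with the density peak of all genes at 0. On the same array all 16 granulocyte genes measured were past 2-fold on the higher side, with a median of 6.03, as were all 12 pan-leukocyte genes, with a median of 5.23. The part of these blood cell genes in the lower Wnt values was not tested.

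At day 3 the family was spread on both sides. Of 34 members with a ratio, 4 were higher by 2-fold or more (11.8%, beside 7.35% of all 11404 genes) and 3 lower by 2-fold or more (8.82%, beside 6.85%). The higher ones were the receptors Fzd4 and Fzd6 and the antagonists Sfrp1 and Sfrp2, and the lower ones the ligands Wnt6 and Wnt11 and the transcription factor Lef1. The family median was -0.10. It turned to 0.13 over genes with a ratio on both arrays, with the median of those genes set to 0. Setting ribosomal protein genes to 0 moved every value up by 0.53 and the family median to 0.43. With that centring 12 members were past 2-fold on the higher side (beside 22.8% of all genes) and none on the lower (beside 2.45%). The calls of Wnt6, Wnt11 and Lef1 were thus lost, that of Wnt11 only just, at -0.9989.

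**Figure D1:**
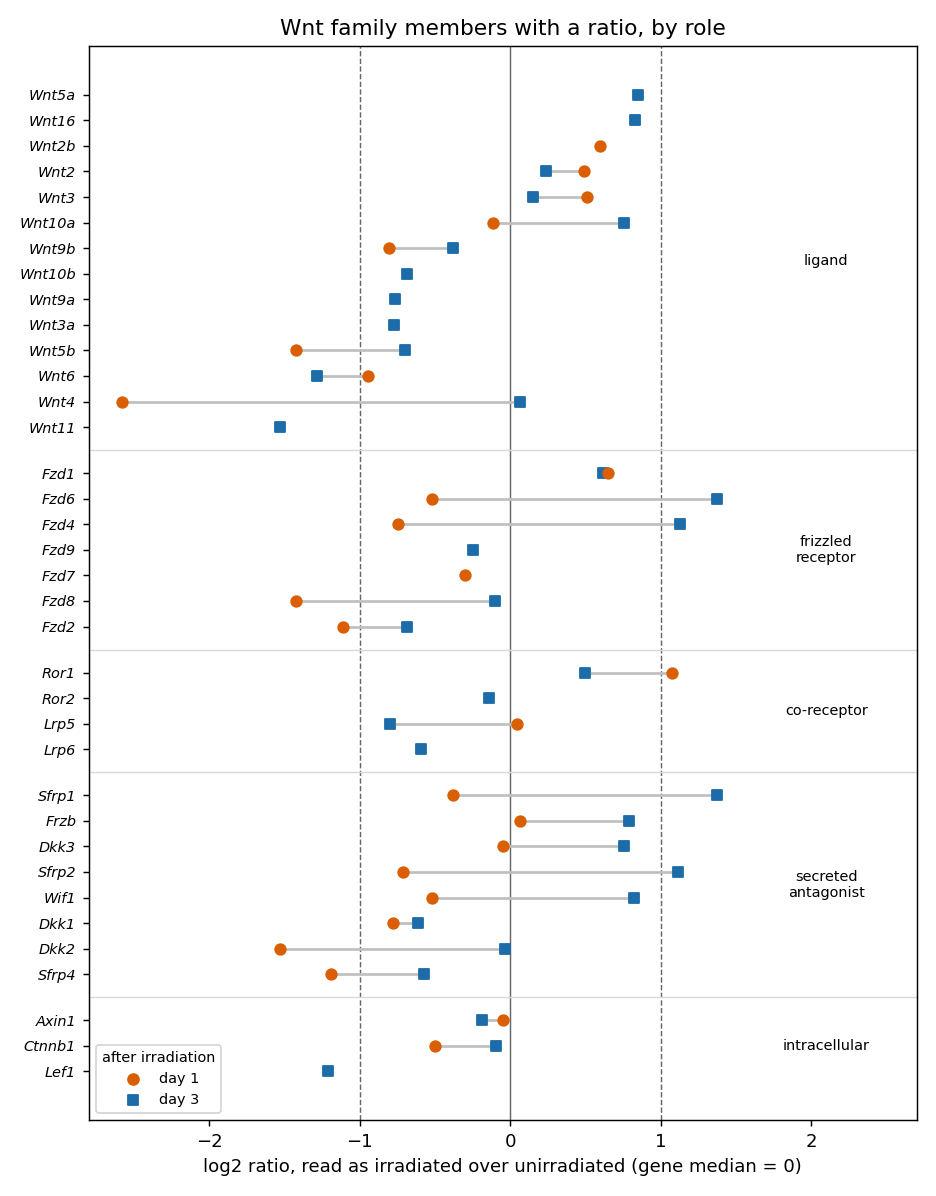
Log2 ratio of each member with a value, grouped by role, at day 1 (circles) and day 3 (squares), with a grey line joining the 2 where both were given; dashed lines mark 2-fold. At day 1 Wnt4 lies farthest to the left at -2.58, and at day 3 Fzd6, Sfrp1, Fzd4 and Sfrp2 lie to the right of 1.

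**Figure D2:**
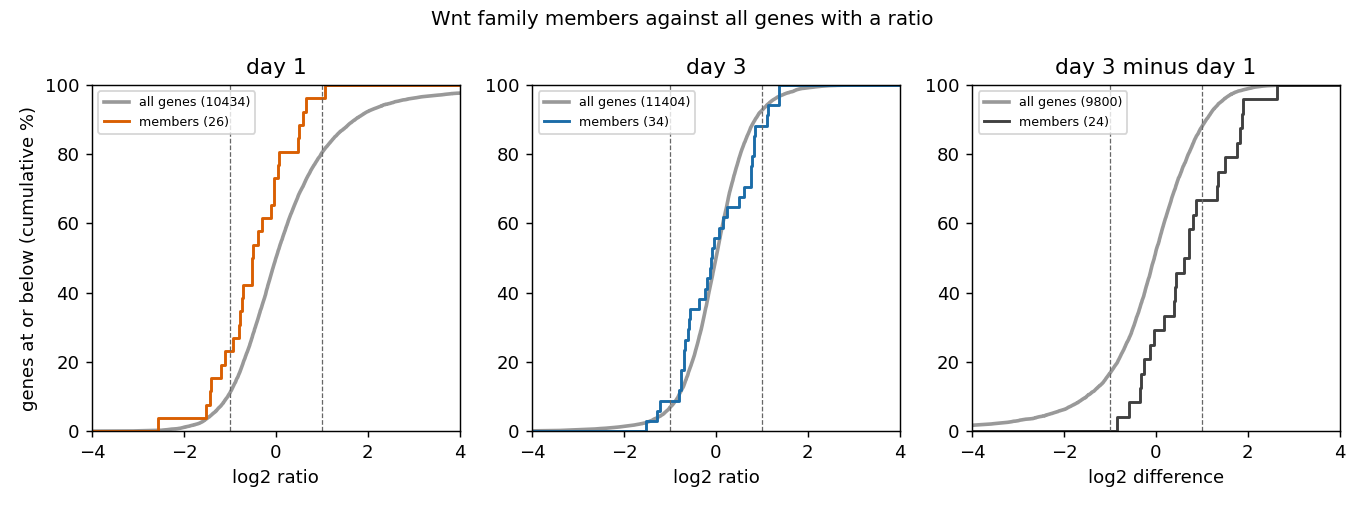
Cumulative share of genes (vertical axis, percent) at or below each log2 ratio for members (stepped line) and all genes (grey) at day 1, at day 3 and for the difference between the days; dashed lines mark 2-fold, and genes beyond 4 on either side are not drawn. The members lie left of all genes at day 1, cross them at day 3, and lie right of them in the difference, where the median is 0.67 against -0.04 for all genes.

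The starts of 5 of the genes with the ratios described here are shown as the 250 bases before the RefSeq start (GRCm38.p6), written 5′ to 3′ on the gene's strand. Capitals mark a GC box, the letters GGGCGG on either strand, and any match to the TCF/LEF motif, the letters CTTTGNN with A or T at each N, on either strand. Among the members, Wnt4 and Dkk2 had the lowest ratios of day 1 and Wnt11 the lowest of day 3. Fzd4 and Sfrp2 were higher by 2-fold or more at day 3. No window was matched for Fzd6 and Sfrp1, the highest members of day 3.
Wnt4: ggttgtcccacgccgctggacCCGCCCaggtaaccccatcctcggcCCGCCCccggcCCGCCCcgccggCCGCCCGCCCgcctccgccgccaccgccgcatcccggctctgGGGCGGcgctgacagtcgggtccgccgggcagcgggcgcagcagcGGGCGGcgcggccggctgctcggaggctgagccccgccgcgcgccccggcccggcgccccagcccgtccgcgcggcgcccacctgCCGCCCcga
Wnt11: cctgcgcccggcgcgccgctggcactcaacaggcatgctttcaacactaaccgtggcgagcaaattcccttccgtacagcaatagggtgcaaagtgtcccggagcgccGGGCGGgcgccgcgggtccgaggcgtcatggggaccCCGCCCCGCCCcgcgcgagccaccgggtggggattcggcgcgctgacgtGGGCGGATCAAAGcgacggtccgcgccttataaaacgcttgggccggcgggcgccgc
Dkk2: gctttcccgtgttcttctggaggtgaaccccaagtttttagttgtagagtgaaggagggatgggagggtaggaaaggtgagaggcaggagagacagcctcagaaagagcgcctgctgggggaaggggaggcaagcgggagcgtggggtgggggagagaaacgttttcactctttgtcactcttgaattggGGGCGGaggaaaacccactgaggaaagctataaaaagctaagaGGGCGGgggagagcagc
Fzd4: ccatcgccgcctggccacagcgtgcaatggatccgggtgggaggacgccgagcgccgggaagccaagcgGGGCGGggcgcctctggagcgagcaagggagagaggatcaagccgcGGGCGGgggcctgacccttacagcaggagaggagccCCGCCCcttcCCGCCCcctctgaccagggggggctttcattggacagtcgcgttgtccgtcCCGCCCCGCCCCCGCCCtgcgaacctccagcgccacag
Sfrp2: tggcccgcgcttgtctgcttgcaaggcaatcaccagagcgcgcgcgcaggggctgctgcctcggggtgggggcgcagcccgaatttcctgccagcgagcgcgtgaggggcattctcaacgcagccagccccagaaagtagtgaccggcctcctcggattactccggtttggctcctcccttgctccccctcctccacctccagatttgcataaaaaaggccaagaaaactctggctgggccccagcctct
Wnt4, at chr4:137277385-137277634 on the plus strand, held 8 GC boxes, of which some overlap, and 44 CpG pairs. Wnt11, at chr7:98834862-98835111 on the plus strand, held 4 GC boxes and 37 CpG pairs; 1 TCF/LEF match starts directly after a GC box, without overlap, and the other 4 windows shown held none. Fzd4, at chr7:89404116-89404365 on the plus strand, held 7 GC boxes and 25 CpG pairs, and Dkk2, at chr3:132085042-132085291 on the plus strand, held 2 and 7. Sfrp2, at chr3:83766071-83766320 on the plus strand, held no GC box and 16 CpG pairs. RefSeq windows were matched for 32 of the 47 members, 40 windows in all because some genes have several starts. Wnt11 has another start, not shown, whose window held no GC box and no TCF/LEF match. Of the 40, 31 held a GC box (77.5%, beside 32.7% of 32851 mouse promoter windows of the same length) and 5 a TCF/LEF match (12.5%, beside 14.8%). Some windows of the same gene overlap, as for Lef1 and Ctnnb1, so these are shares of windows and not of genes. The median number of CpG pairs was 20, beside 6. These are matches of letters only.

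Among the ligands, Wnt4 stood far from the rest at day 1. It had a log2 ratio of -2.58 at day 1, or 5.97-fold lower, and only 0.23% of all genes on that array were lower still. At day 3 Wnt4 stood at 0.07. Wnt4 is known for roles in the kidney and the female reproductive tract. Wnt5b was at -1.42 at day 1 and -0.70 at day 3. Wnt6 was at -0.95 and -1.28, the lowest day 3 value among ligands measured on both arrays. Wnt9b, which acts in kidney tubules, was at -0.81 and -0.38.

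The remaining ligands with both values were close to 0 or on the higher side. Wnt2 was at 0.49 at day 1 and 0.24 at day 3, and Wnt3 at 0.51 and 0.15. Wnt10a was at -0.11 and 0.75, with its day 1 sign turned when the density peak or ribosomal protein genes were set to 0. Wnt2b had only a day 1 value, 0.60.

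Of the ligands with a day 3 value only, Wnt11 was the lowest at -1.53, or 2.89-fold lower; it acts mainly without beta-catenin, in cell movement. Wnt3a, the classic activator of beta-catenin, stood at -0.77, Wnt9a at -0.77, and Wnt10b, which favours bone over fat formation in mouse marrow, at -0.68. Wnt5a, the main ligand of Ror receptors, stood at 0.85, and Wnt16, which osteoblasts make, at 0.83. All of these but Wnt11 were within 2-fold. Over ligands the median was -0.46 at day 1 (8 genes) and -0.38 at day 3 (13 genes), and it turned to 0.06 and 0.15 with ribosomal protein genes at 0.

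The frizzled receptors were lower at day 1 for 5 of 6 and evenly divided at day 3, with 3 of 6 above 0; with ribosomal protein genes at 0, Fzd6 and Fzd7 turned positive at day 1 and Fzd8 and Fzd9 at day 3. Fzd6, known for orienting hair follicles, was at -0.52 at day 1 and 1.38 at day 3, where it was 2.60-fold higher in irradiated RNA. Fzd4, the receptor of Norrin in retinal vessels, was at -0.74 and 1.13. At day 1, 27.0% of all genes lay below Fzd6 and 18.7% below Fzd4, and at day 3 96.7% and 94.4%. The endothelial list stood at a median of 0.59 at day 1 and 1.79 at day 3. All 13 of its measured genes were past 2-fold on the higher side at day 3, beside 7.35% of all genes. The part of endothelial cells in the Fzd4 value was not tested.

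Other frizzled receptors did not share this pattern in full. Fzd8 was at -1.42 at day 1 and -0.10 at day 3, and Fzd2 at -1.11 and -0.69. Fzd1 was alike on both arrays, at 0.65 and 0.62. Fzd7 was at -0.30 at day 1, and Fzd9, which supports bone formation in mice, at -0.25 at day 3. The median was -0.63 at day 1 and 0.26 at day 3, and kept its sign under every centring tried.

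Of the co-receptors, Ror1 was the 1 member higher by 2-fold or more at day 1. This receptor tyrosine kinase-like protein, which binds Wnt5a, was at 1.08 at day 1 and at 0.50 at day 3. Its relative Ror2 had a day 3 value only, -0.14. Lrp5, which influences bone mass, was at 0.05 at day 1 and -0.80 at day 3, and Lrp6 stood at -0.59 at day 3. The day 3 median of the 4 co-receptors was -0.37, which became 0.17 with ribosomal protein genes at 0.

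Secreted antagonists stood lower than the median gene at day 1 and higher at day 3. Of 8 with values, 7 were below 0 at day 1, and 5 were above 0 at day 3. Their median was -0.62 at day 1 and 0.77 at day 3, a sign that no centring tried turned on either array (-0.10 and 1.30 with ribosomal protein genes at 0). Sfrp1, which binds Wnt ligands through a domain like that of frizzled receptors, was at -0.38 at day 1 and 1.37 at day 3. Sfrp2, of the same family, was at -0.71 and 1.12. Sfrp1 was thus 2.59-fold and Sfrp2 2.17-fold higher at day 3.

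Wif1, which binds ligands by a domain of its own, was at -0.52 at day 1 and 0.82 at day 3. Frzb, a further Sfrp protein expressed in cartilage, was at 0.06 and 0.79. Dkk3, the Dkk family member least like the others in function, was at -0.05 and 0.76. These 3 were within 2-fold on both arrays, and past it at day 3 with ribosomal protein genes at 0. The day 1 signs of Sfrp1, Wif1 and Dkk3 turned positive under that centring.

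Sfrp4, Dkk1 and Dkk2 were below 0 on both arrays, although Dkk2 turned positive at day 3 with ribosomal protein genes at 0. Sfrp4, whose loss thins cortical bone, was at -1.19 at day 1 and -0.57 at day 3. Dkk2 was at -1.53, or 2.89-fold lower, at day 1 and at -0.03 at day 3. Dkk1, which blocks Lrp5 and Lrp6 and restrains bone formation, was at -0.78 and -0.61. The Sfrp group was therefore not uniform at day 3, with Sfrp1 and Sfrp2 past 2-fold higher and Sfrp4 below 0.

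Of the intracellular genes, Lef1 was lower by 2-fold or more at day 3. Lef1, a nuclear partner of beta-catenin that is also made by developing lymphocytes, stood at -1.21 at day 3 and had no day 1 value. Beside it, B cell genes had a median of -1.60 at day 3 over the 4 of 11 listed genes that were measured. Of these, 2 were past 2-fold on the lower side, beside 6.85% of all genes. T and NK cell genes had a median of 0.34 over 5 of 14. The part of lymphocytes in the Lef1 value was not tested. Ctnnb1, the gene of beta-catenin, was at -0.50 at day 1 and -0.09 at day 3. Axin1, the scaffold of the destruction complex, was at -0.05 and -0.19. The signs of both turned positive on each array with ribosomal protein genes at 0. The mRNA of Ctnnb1 says nothing of its protein, which the pathway regulates by degradation.

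Set against each other, the arrays placed most members, 17 of 24, higher at day 3 than at day 1, beside 47.9% of all genes. Among these 24 members with both values, 8 had a ratio higher by 2-fold or more at day 3 (33.3%, beside 12.1% of 9800 genes) and none lower by 2-fold or more, beside 16.8% of all genes. The median difference was 0.67, against -0.04 for all genes, and 0.48 with the density peak at 0, the lowest of the centrings tried. The 8 were Wnt4 (2.64), Fzd6 (1.90), Fzd4 (1.87), Sfrp2 (1.83), Sfrp1 (1.75), Wif1 (1.34), Fzd8 (1.32) and Dkk2, the last 2.82-fold higher at day 3 than at day 1. All 8 antagonists with both values had a positive difference, with a median of 1.07 and Dkk1 the smallest at 0.16. The difference for Dkk1 turned negative with the density peak at 0.

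The members below 0 in this difference were Lrp5 (-0.84), Ror1 (-0.58), Wnt3 (-0.36), Wnt6 (-0.34), Wnt2 (-0.25), Axin1 (-0.14) and Fzd1 (-0.03). None was past 2-fold, except Lrp5 with the density peak at 0. The difference carries the error of both arrays, which was not measured, and the unirradiated RNA may be common to them. Granulocyte genes differed by a median of -7.70 and pan-leukocyte genes by -5.60. Marker lists of marrow stroma also had positive median differences, and 12.1% of all genes were higher by 2-fold or more. Mesenchymal stromal genes had a median difference of 0.93 with 3 of 10 higher by 2-fold or more, and osteoblast genes 0.64 with 2 of 10. Single osteoblast genes ran from -0.36 to 1.36. Endothelial genes had a median difference of 1.24 with 9 of 13, and adipocyte genes 1.17 with 6 of 8. The part of these cell types in the Wnt differences was not tested.

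**Figure D3:**
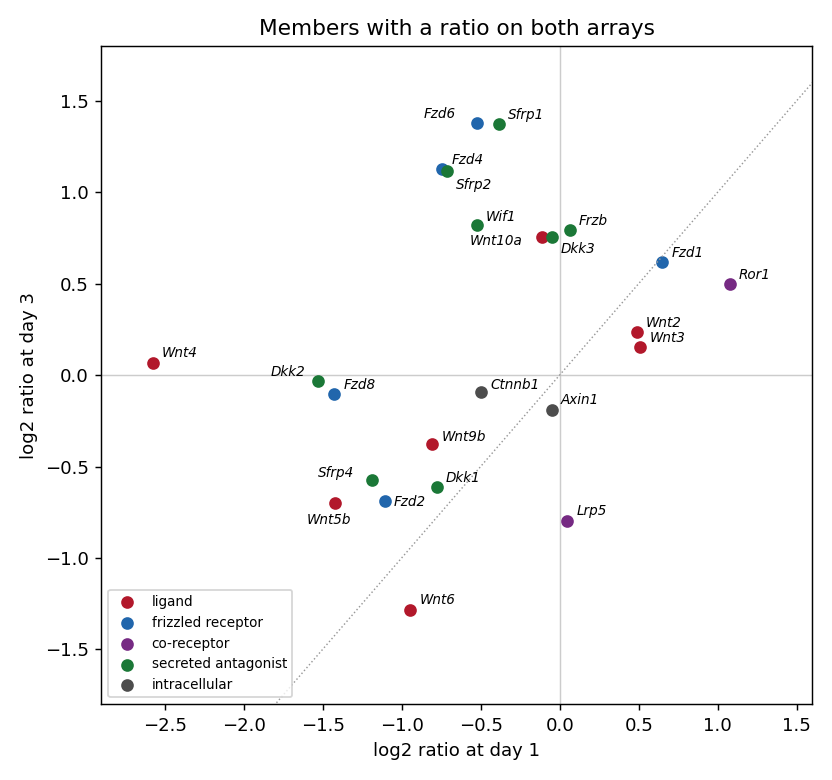
Log2 ratio at day 1 (horizontal axis) and day 3 (vertical axis) for the 24 members with both values, coloured by role; the dotted line marks equal ratios. Fzd6, Fzd4, Sfrp1, Sfrp2 and Wif1 form the upper left, below 0 at day 1 and above 0.8 at day 3, and Wnt4 lies alone at the far left.

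Other genes of the pathway were read from lists of the surface, the cell interior and the response, with the 47 members left out. At day 1, 5 of the 13 surface and secretion genes measured were past 2-fold on the lower side and none on the higher (median -0.87), beside 11.1% and 19.6% of all genes. Rspo4, an R-spondin that strengthens Wnt signals, was the lowest at -2.51, followed by Tpbg, an inhibitory membrane glycoprotein, at -2.23. The Dkk receptors Kremen1 (0.14) and Kremen2 (-0.05) were the highest. At day 3, 2 of 19 were past 2-fold on the higher side and 1 on the lower (median 0.47), near the 7.35% and 6.85% of all genes. Lgr4, a receptor of R-spondins, stood at 2.15, and Sostdc1, an antagonist that binds Lrp5 and Lrp6, at 1.87. Rspo4 was again the lowest at -2.89, followed by Kremen2 at -0.99. Both medians kept their sign under every centring tried.

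Of the genes of the cell interior, 5 of 19 were higher by 2-fold or more at day 1 and 1 lower, beside 19.6% and 11.1% of all genes, so the higher share was near that of all genes. The corepressor Tle3 was at 1.76 and Pygo1, a nuclear cofactor of beta-catenin, at 1.73. Nkd1, a feedback inhibitor, was at -2.04, and the dishevelled gene Dvl2 at -0.89. At day 3 a single gene of 24 passed 2-fold, on the higher side, beside 7.35% of all genes. Tnks2, a tankyrase that destabilises axin, was at 1.04, the planar polarity gene Vangl2 at 0.92, Dvl2 at -0.81 and Dvl3 at -0.66. The medians were 0.11 and 0.07.

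Of 9 genes known to respond to Wnt signals in some tissues, 4 were lower by 2-fold or more and 1 higher at day 1, beside 11.1% and 19.6% of all genes, with a median of -0.92. Among measured genes this list shares Nkd1 with that of the cell interior and Notum, Lgr5 and Rnf43 with that of the surface, so its counts are not separate from theirs. Nkd1 was the lowest at -2.04, and Tnfrsf19 followed at -1.47. Fosl1, an AP-1 gene that many other signals induce, was the highest at 5.31, and Cdx1 was at 0.67. At day 3 a single gene of 12 passed 2-fold, on the lower side (median 0.07), beside 6.85% of all genes. Ccn4 was at -1.01, the feedback ligase Rnf43 at -0.86, Fosl1 at 0.49 and the stem cell receptor Lgr5 at 0.46.

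**Figure D4:**
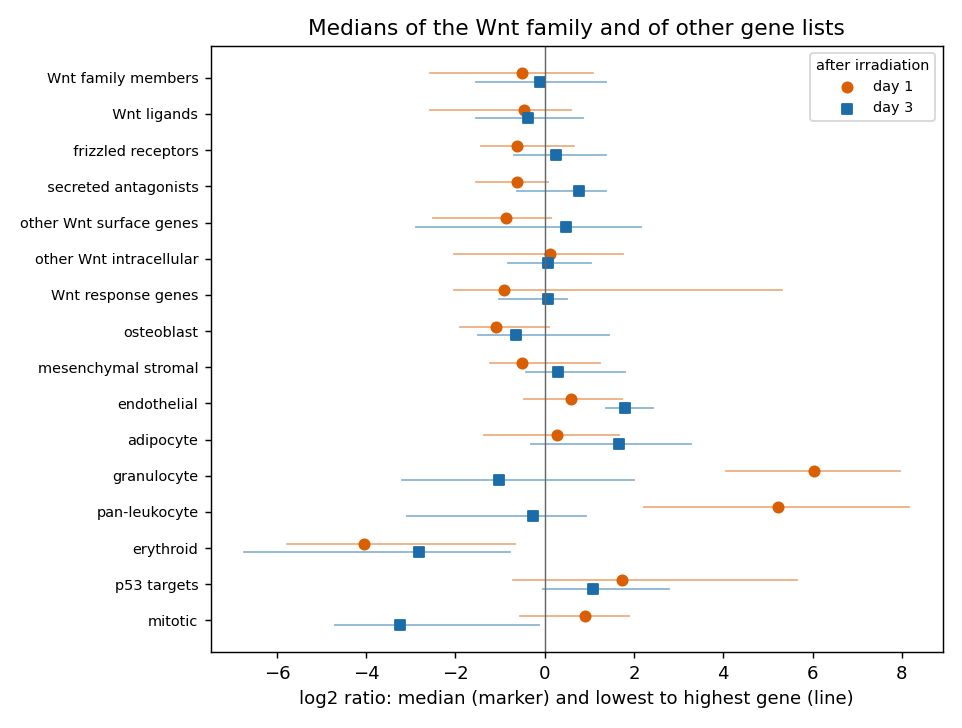
Median log2 ratio (marker) and the lowest to highest gene (line) of gene lists at day 1 (circles) and day 3 (squares). Shown are the Wnt family, its ligands, frizzled receptors and secreted antagonists, other Wnt pathway lists and marker lists. Co-receptors, intracellular members, B cell genes and T and NK cell genes are not drawn. The Wnt medians lie between -0.92 and 0.77, while granulocyte genes lie at 6.03 at day 1 and mitotic genes at -3.24 at day 3.

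The marker lists give the setting of these values. Osteoblast genes had a median of -1.10 at day 1, with 6 of 10 lower by 2-fold or more, beside 11.1% of all genes. At day 3 their median was -0.64, with 4 of 11 lower and 1 higher, beside 6.85% and 7.35% of all genes. Mesenchymal stromal genes had a median of -0.50 at day 1 (0.02 with ribosomal protein genes at 0) and of 0.29 at day 3, with 11 of 13 named genes measured on each array. Adipocyte genes stood at 0.27 and 1.67. Erythroid genes stood at -4.06 at day 1 over 7 genes and at -2.82 at day 3 over 8, and over the 7 with both values the median difference, day 3 minus day 1, was -0.38.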

How the data were processed

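RNA of irradiated and unirradiated bone marrow stromal cells was measured on 2 two-channel oligonucleotide arrays, amplified as amino allyl RNA per the labels' protocols. The authors' deposited values are 1 log ratio per probe and array, read here as log2; the base, scanner, background subtraction, normalisation and filter are not given in the sources used here. Medians over probes (0.0003 and -0.0001 at days 1 and 3) were near 0 as deposited. Ratios were missing for 9515 (day 1) and 8056 (day 3) of 23473 probes. Without intensities, signal over background is unknown, and precision is limited by the number of arrays.

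By the platform annotation 16631 probes had a symbol, a single one each, and 6842 had none. Symbols were updated through RefSeq (GRCm38.p6): 12622 were current, 3947 matched by an older name, 59 had several candidates and 3 none. Members were chosen by the annotated symbol. Probes of a gene were averaged and the gene median of each array subtracted (-0.0119 at day 1, 0.0162 at day 3). Genes at least 2-fold from 0 were counted. The members and lists were chosen with earlier results of these data known. Every member with a ratio is named, with the 2 highest and 2 lowest of each other Wnt list on each array. Probe sequences were not analysed, so cross-hybridisation between related genes was not assessed. Alternatives were other centrings, another choice of probe, a 1.5-fold rule and genes with both ratios. Counting was tested on simulated data. Python 3.11.15, pandas 2.3.3, numpy 2.4.6 and scipy 1.17.1 were used.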

Additional observations from a re-analysis of the deposited data

Results flagged for a closer look

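For 6 members the ratio had opposite signs on the 2 arrays and the arrays lay at least 2-fold apart; with 1 array per time point this difference was not tested. As log2 differences, day 3 minus day 1, they were 2.64 for Wnt4, 1.90 for Fzd6, 1.87 for Fzd4, 1.83 for Sfrp2, 1.75 for Sfrp1 and 1.34 for Wif1. All 6 were lower at day 1 and higher at day 3 than the median gene. For Fzd6, Sfrp1 and Wif1 the day 1 sign turned positive with ribosomal protein genes at 0, so that the signs then no longer opposed each other, while Wnt4, Fzd4 and Sfrp2 kept opposite signs.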

How the results depend on the processing

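With ribosomal protein genes at 0, members higher by 2-fold or more were 5 at day 1 and 12 at day 3, beside 32.3% and 22.8% of all genes, and members lower by 2-fold or more were 2 and 0, beside 3.48% and 2.45%. The family median then turned to 0.01 at day 1 and 0.43 at day 3. At day 1 Fzd2, Fzd8, Sfrp4 and Wnt5b then lost their lower call, Wnt4 and Dkk2 kept it, and Fzd1, Wnt2, Wnt2b and Wnt3 became higher. At day 3 Lef1, Wnt6 and Wnt11 lost theirs. Dkk2 at -1.008 (day 1) and Wnt11 at -0.9989 (day 3) lay almost at the threshold, on different sides of it. With the density peak at 0, which moves day 1 values by 0.19, Fzd2 and Sfrp4 lost their call at day 1. Under that centring 1 member, Lrp5, was lower by 2-fold or more at day 3 than at day 1, beside 20.7% of all genes. Over genes with both ratios, with the median of those genes set to 0, the day 3 family median turned to 0.13. There 1 member was lower by 2-fold or more at day 3, since Wnt11 and Lef1 had no day 1 value. Of all genes with both ratios, 6.77% were lower by 2-fold or more at day 3, with the median of all genes kept at 0. A 1.5-fold rule gave 3 higher and 11 lower members at day 1 (29.4% and 24.3% of all genes), 11 and 11 at day 3 (17.9% and 17.5%), and 13 and 1 for the difference (23.8% and 26.9%). Taking each comparison by itself, no value past 2-fold changed sign under the centrings tried. Each member has 1 probe, so the choice of probe could act on members only through the centring and says nothing of their stability. The 8 members higher by 2-fold or more at day 3 than at day 1 passed 2-fold under every centring tried. Of all genes, 8.2% did so with the density peak at 0, 12.2% with ribosomal protein genes at 0 and 12.6% as deposited. No paired analysis was possible because each time point has 1 array. Depth has no count here, and 21 members at day 1 and 13 at day 3 had no ratio.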

Other observations

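In the RefSeq gene order 4 pairs of members lie next to each other with no other protein-coding gene between them. Wnt6 and Wnt10a, such a pair, stood at -1.28 and 0.75 at day 3, on opposite sides of the median gene, and at -0.95 and -0.11 at day 1. Wnt9b and Wnt3 stood at -0.81 and 0.51 at day 1, and at -0.38 and 0.15 at day 3. Wnt3a and Wnt9a were both at -0.77 at day 3 with no value at day 1. Of Wnt10b and Wnt1, only Wnt10b had a ratio, -0.68 at day 3. With 1 probe per gene and no replicate, these differences between neighbours were not tested.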
